A study of Mus musculus with 12 samples.

Results

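Nuclear hormone receptors are transcription factors that bind DNA directly and, in most cases, are switched by a small lipid-soluble ligand such as a steroid, thyroid hormone, retinoic acid or a fatty acid. Steroid receptors act mostly as pairs of the same protein, whereas the receptors for thyroid hormone, retinoic acid, vitamin D and fatty acids pair with a retinoid X receptor (RXR) on repeats of a short half-site. In fat, PPARγ (Pparg) drives adipocyte formation and PPARα (Ppara) drives fatty acid oxidation, while in the vessel wall receptors for glucocorticoids, mineralocorticoids and estrogen act on smooth muscle and endothelium. The list examined here names 32 receptors and leaves out the oxysterol receptors (LXR) and the receptors of the circadian clock. The members are the rows of the deposited count table that carry one of these symbols. Of the 32 symbols, 31 have a row among the 25284 genes of the table, Nr0b2 being the symbol without one, and 26 passed the filter on low counts that left 15857 genes for testing.

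The counts come from RNA of the thoracic aorta of 12 male ApoE-/- mice on a C57BL/6 background, which lack apolipoprotein E and develop atherosclerosis. All 12 ate a high fat diet with cholesterol, and all carried osmotic minipumps under the skin for 8 weeks until 18 weeks of age. In 6 mice, named A1 to A6 here, the pumps delivered AZ6983, an agonist of the α7 nicotinic acetylcholine receptor, at 50 µmol per kg per day, and in the 6 controls, C1 to C6, they delivered the cyclodextrin vehicle alone. No mouse with intact Apoe was included, so every value below is from ApoE-/- aorta.

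Counts on genes per mouse lay between 23810036 and 35864666. The samples held fat as well as vessel wall. The smooth muscle myosin Myh11 was at 4551 to 7014 counts scaled to a common library total (CPM), the fibroblast receptor Pdgfra at 147 to 223 CPM, the adipocyte hormone Adipoq at 211 to 508 CPM and Ucp1, which defines brown fat, at 1228 to 3728 CPM. Rag1, which marks thymocytes, lay between 0.149 and 577 CPM, the highest value being that of A4. Mouse A5 stood apart, with the highest white fat and brown fat scores, the lowest smooth muscle score and the lowest TMM normalization factor (0.837, the other 11 mice 0.987 to 1.07). Reads assigned to no gene were 8.02% to 12.7% of the table in controls and 11.2% to 14.9% in AZ6983 mice. The library numbers of the columns, whose meaning is not given, are 3 to 7 and 12 for the controls, so an effect of that order and the treatment cannot be told apart for most mice. Nothing in the labels says that the mice came from separate litters or cages, and p-values measure the spread between these 12 mice.

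RefSeq promoter windows (assembly GRCm38.p6) were matched for 30 of the 32 members, 45 windows in all, and Nr3c1 and Thra had none. The windows below belong to receptors whose levels followed a fat marker score below, and are shown for the contrast in their base composition. Each runs 5′ to 3′ toward the start, stops before the first annotated exon base, and has any AGGTCA half-site, read on either strand, in capitals.
Pparg, the second start, chr6:115362099-115362291, plus strand: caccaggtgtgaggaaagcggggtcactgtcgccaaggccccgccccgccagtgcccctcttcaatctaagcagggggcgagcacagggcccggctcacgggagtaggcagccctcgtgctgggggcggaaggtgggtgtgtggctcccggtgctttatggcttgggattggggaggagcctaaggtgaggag
Pparg, the third start, chr6:115421816-115422065, plus strand: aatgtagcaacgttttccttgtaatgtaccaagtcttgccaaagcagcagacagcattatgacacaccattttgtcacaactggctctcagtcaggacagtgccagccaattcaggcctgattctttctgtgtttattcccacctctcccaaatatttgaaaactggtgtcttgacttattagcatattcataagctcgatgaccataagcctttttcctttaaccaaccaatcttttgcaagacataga
Rxrg, the second start, chr1:167618015-167618264, plus strand: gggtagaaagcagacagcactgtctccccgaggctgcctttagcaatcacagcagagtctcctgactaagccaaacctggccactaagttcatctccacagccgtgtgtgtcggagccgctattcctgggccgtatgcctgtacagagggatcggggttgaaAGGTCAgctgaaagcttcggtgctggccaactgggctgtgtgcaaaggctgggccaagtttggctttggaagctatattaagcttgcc
Esrra, chr19:6921814-6922058, minus strand: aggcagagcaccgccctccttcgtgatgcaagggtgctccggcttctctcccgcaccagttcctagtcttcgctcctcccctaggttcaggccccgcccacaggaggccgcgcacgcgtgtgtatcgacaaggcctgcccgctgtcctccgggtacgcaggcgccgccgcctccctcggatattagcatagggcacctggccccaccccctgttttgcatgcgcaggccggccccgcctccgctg

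Over the full 250 bases before each start, G and C made up 82.4%, 63.6% and 40.8% at the first, the second and the third start of Pparg, 76.4% for Ppara, 68.4% for Esrra, and 49.2% and 55.2% at the starts of Rxrg, where the median of 32851 promoter windows of the same length was 52.4%. The third start of Pparg thus lay in the poorest of these windows in G and C, with 2 CG dinucleotides against 38 at the first. The half-site AGGTCA on either strand was in 10 of the 45 member windows and in 14.02% of all windows. The extended half-site TCAAGGTCA, which contains AGGTCA, was in 0 member windows and 0.387% of all, and the direct repeat AGGTCANAGGTCA was in 0 and 0.0335%. The GC box GGGCGG was in 23 of 45 member windows against 32.7% of all, and TATAAA in 7 of 45 against 12.4%. A match to these letters describes the window and says nothing of binding.

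The receptors were ranked by level, defined as TMM-normalized CPM per kilobase of annotated exon, so that genes of different length can be compared. At or above 1 CPM per kilobase, as a median over the 12 mice, stood 22 of the 31 members. The count was 24 with the length of the longest transcript or the coding length, and 21 when the lowest of the 12 mice had to reach 1. Pparg ranked first at a median of 42.4 CPM per kilobase, followed by the glucocorticoid receptor Nr3c1 at 35.7, the thyroid hormone receptor Thra at 24.1, Ppara at 20.8 and Rxra at 14.8. As shares of the summed level of all members, Pparg took a median of 19.0%, Nr3c1 15.7%, Thra 10.4% and Ppara 9.71%. The first place depended on the length used: Nr3c1 came ahead of Pparg per kilobase of coding sequence (115 against 82.7 CPM per kilobase), and Thra ahead of Nr3c1 by the longest transcript.

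**Figure D1:**
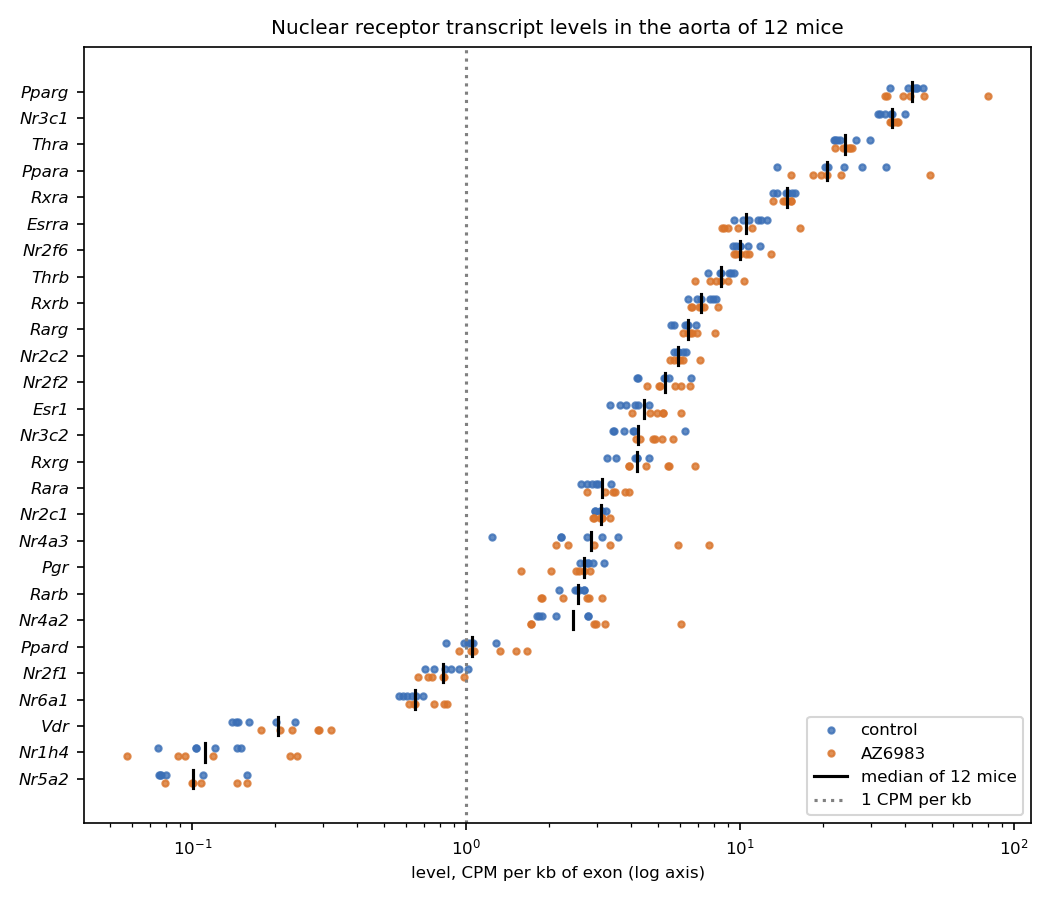
Level of each nuclear receptor in CPM per kilobase of exon (log axis) in 6 control and 6 AZ6983 mice, 1 point a mouse, with the median of the 12 mice as a bar; members at 0 in any mouse are not drawn. Pparg, Nr3c1, Thra and Ppara lie at the top, the spread within Ppara, Nr4a3 and Nr4a2 is wide, and Vdr, Nr1h4 and Nr5a2 lie far under 1.

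Many neighbours in this order did not differ beyond the spread between mice. Pparg was above Nr3c1 in 9 of 12 mice, Thra above Ppara in 9 and Esrra above Nr2f6 in 7. Esr1 was above Nr3c2 in only 5 of 12 mice, Nr3c2 above Rxrg in 4, and Rara above Nr2c1 in 6. Per kilobase of exon, steps that held in all 12 mice were Nr3c1 over Thra, Nr2f6 over Thrb, Nr4a2 over Ppard, Nr6a1 over Vdr and, at few counts, Nr5a2 over Esr2. Mice that share an order do not test the length used. By coding length the order turned, with Thrb at rank 7 and Nr2f6 at 11, and Ppard at 21 and Nr4a2 at 22. By the longest transcript Thra was at 2 and Nr3c1 at 3. The members also differed in how much they varied. The coefficient of variation of the level over the 12 mice was 4.41% for the orphan receptor Nr2c1, 6.10% for Rxra and 6.34% for Nr3c1, but 40.3% for Ppara, 45.6% for Nr4a2 and 54.7% for Nr4a3.

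Among the steroid receptors, Nr3c1, which binds glucocorticoids, made up a median of 75.3% of the summed level of the class. Its level lay between 31.9 and 40.02 CPM per kilobase, with the highest value in control C6. The estrogen receptor Esr1 was at 4.43 CPM per kilobase (median, 3.36 to 6.09), the mineralocorticoid receptor Nr3c2 at 4.23 (3.42 to 6.27) and the progesterone receptor Pgr at 2.70 (1.58 to 3.19). The second estrogen receptor, Esr2, had no read in 7 of the 12 mice and at most 2 counts in any, under the limit of 3 counts that a count of 0 allows (0.0798 to 0.123 CPM per mouse). Estrogen receptor transcript in these samples was therefore Esr1, as far as this depth can show. This limit, like the other counting limits given, covers counting error only.

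In the thyroid pair, Thra made up 73.5% of the summed level and Thrb, at 8.51 CPM per kilobase, the remainder. Of the RXR genes, which supply the shared partner, Rxra made up 55.4%, Rxrb 27.8% and Rxrg 16.9% as medians over the mice. The share of Rxrg ran from 12.8% in C6 to 22.8% in A5, and that of Rxra from 49.6% in A5 to 62.0% in C6. As RXR partners, the listed thyroid, retinoic acid and PPAR genes were summed with Vdr, Nr1h4 and Nr1i3. The oxysterol receptors (LXR), which are outside the list, were not in the sum. The summed level of these 11 listed RXR partners was 4.19 times the summed RXR level (median, 3.67 in A1 to 5.99 in A5). The next mouse after A5 stood at 5.002. In controls this ratio was 4.31 ± 0.379 (SD, n = 6) and in AZ6983 mice 4.35 ± 0.831 (SD, n = 6), a difference within the spread (exact permutation test, two-sided, p = 0.935).

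Of the PPAR genes, which sense fatty acids, Pparg made up 64.7% of the summed level, Ppara 33.6% and Ppard 1.73%. Pparg (chr6:115360951-115490399, GRCm38, plus strand) lay between 33.6 and 80.5 CPM per kilobase and Ppara (chr15:85734983-85802819, plus strand) between 13.6 and 49.4, with A5 highest in both. Ppard, the form present in most cell types, was at 1.05 CPM per kilobase (0.844 to 1.67). Among the retinoic acid receptors Rarg led at 6.46 CPM per kilobase, ahead of Rara at 3.12 and Rarb at 2.56. The estrogen-related receptor Esrra, a driver of mitochondrial genes with no known natural hormone, was at 10.5 CPM per kilobase (8.57 to 16.5).

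Orphan receptors were well represented. Of the COUP-TF group, which shapes arteries, veins and smooth muscle in development, Nr2f6 was at 9.97 CPM per kilobase, Nr2f2 at 5.29 and Nr2f1 at 0.825. The testicular receptors, named for where they were cloned, were at 5.92 (Nr2c2) and 3.10 (Nr2c1). The immediate early receptors Nr4a2 and Nr4a3, whose transcription responds within minutes to stimuli, were at 2.45 (1.72 to 6.07) and 2.85 (1.24 to 7.72), with A5 highest in both. Nr6a1, known from germ cells and the early embryo, was at 0.647.

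The receptors known from liver, gut and endocrine glands were at or near 0. The vitamin D receptor Vdr had 20 to 68 counts per mouse and a level of 0.205 CPM per kilobase, and the liver and pancreas receptor Nr5a2 had 12 to 35 counts and a level of 0.1002. The bile acid receptor Nr1h4 had 5 to 15 counts per mouse, 97 in all, too few for the filter. The xenobiotic receptor Nr1i3 had no read in 8 mice, the hepatocyte factor Hnf4a none in 9 and the adrenal factor Nr0b1 none in 7. Their highest counts in any mouse were 2, 2 and 5. These 4 genes and Esr2 were not tested.

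To tell receptors that follow fat from those that follow the wall, the log2 CPM of each of the 26 members tested was correlated over the 12 mice with a white fat score and with a smooth muscle score, each the mean log2 CPM of a marker list that contains no member. Marker lists do hold receptor targets. Examples are Adipoq, a white fat marker and a listed PPARγ target, and Ucp1, a brown fat marker and a listed thyroid target. How many other markers are receptor targets is not given here, so a score is not independent of the receptors. The part of such targets in a link was not tested. A member was called linked where r was above 0 in all mice and within each group, with an adjusted permutation p under 0.10 over these 52 relations. In bulk samples, fewer cells of a type and less RNA per cell cannot be told apart. The white fat score was 7.34 ± 0.223 in controls and 7.40 ± 0.268 in AZ6983 mice (SD, n = 6 each, exact permutation p = 0.654). It was highest in A5 at 7.90 and next in C2 at 7.75. The smooth muscle score moved against it (r = -0.82, permutation p = 0.00187, rho = -0.62, p = 0.0368, n = 12), so a link to one score is not separate from a negative relation to the other.

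By this rule 3 members were linked to fat: Ppara, Pparg and Rxrg. Ppara had r = 0.82 with the white fat score (permutation p = 0.00223, adjusted p = 0.0387) and Spearman's rho = 0.74 (p = 0.00697, adjusted p = 0.164). Within controls r was 0.66 and within AZ6983 mice 0.93. Pparg had r = 0.77 (permutation p = 0.00515, adjusted p = 0.0536) and rho = 0.65 (p = 0.0250, adjusted p = 0.173), with r = 0.59 in controls and 0.90 in AZ6983 mice. Rxrg, the RXR gene (chr1:167598384-167639623) with the smallest share, had r = 0.72 (permutation p = 0.00926, adjusted p = 0.0803) and rho = 0.53 (p = 0.0793, adjusted p = 0.330), with r = 0.72 and 0.83 in the groups. By rank, then, 0 members passed. Among all genes tested, 8.19% had r of at least 0.6 with this score and r above 0 in both groups, as did 4 of the 26 members.

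These links rested on few mice. Without A5 and C2, the mice farthest from the median score, r was 0.63 for Ppara (permutation p = 0.0553), 0.48 for Pparg (p = 0.164) and 0.58 for Rxrg (p = 0.0773), so the relations rest on those mice. Without A5 alone the adjusted p was 0.544, 0.781 and 0.781, and without C6, the mouse with the least white fat, 0.137, 0.137 and 0.164. The link of Rxrg was also lost without C1 (adjusted p = 0.101), C3 (0.108), A3 (0.122) or A4 (0.128). Against the smooth muscle score the same members had r = -0.88 (Ppara), -0.87 (Pparg) and -0.76 (Rxrg), with adjusted p = 0.0182, 0.0335 and 0.0536.

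**Figure D2:**
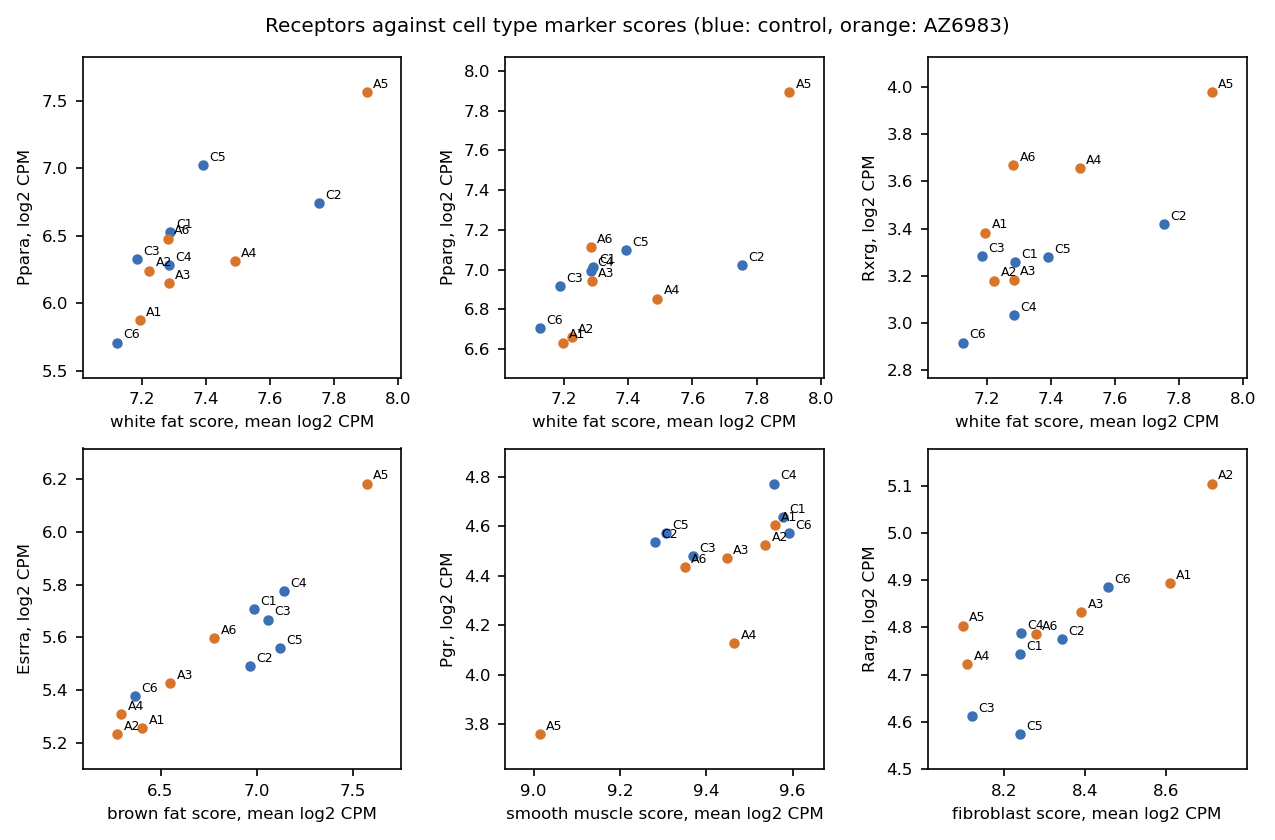
Log2 CPM of 6 receptors (vertical axes) against a marker score, the mean log2 CPM of a marker list (horizontal axes), in 6 control mice (blue) and 6 AZ6983 mice (orange), each point a mouse. Mouse A5 sits at the upper right for Ppara, Pparg, Rxrg and Esrra and at the lower left for Pgr, and Esrra follows the brown fat score through both groups.

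With brown fat markers in place of white fat markers, the linked members were Esrra, Pparg, Ppara, Rxrb and Thrb, and Rxrg was not among them (r = 0.35, adjusted p = 0.443). The share of all genes with such a relation was not computed for the brown fat score, so whether this count is high cannot be said. Esrra (chr19:6910977-6921813, minus strand) had r = 0.93 with the brown fat score (permutation p = 5.0e-05, adjusted p = 0.0026) and rho = 0.92 (p = 0.00015, adjusted p = 0.0078). Its r was 0.77 within controls and 0.99 within AZ6983 mice. Without A2 and A5, the mice farthest from the median brown fat score, r for Esrra was 0.88 (permutation p = 0.00124), and with any 1 mouse left out it stayed between 0.91 and 0.95. Against the white fat score the r of Esrra was 0.54 (adjusted p = 0.280) and its sign differed between the groups (-0.15 in controls, 0.87 in AZ6983 mice). The r with brown fat was 0.83 for Pparg, 0.80 for Ppara, 0.77 for Rxrb and 0.73 for Thrb, with adjusted p = 0.0052, 0.0155, 0.0348 and 0.0455. Their rho was 0.73, 0.68, 0.71 and 0.62, with adjusted p = 0.116, 0.138, 0.119 and 0.170, so by rank only Esrra passed. Without A2 and A5, r was 0.73 for Pparg, 0.70 for Ppara, 0.63 for Rxrb and 0.82 for Thrb, with permutation p = 0.0150, 0.0225, 0.0547 and 0.00286. Without those mice only the p of Rxrb was no longer under 0.05.

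No member was linked to the wall by smooth muscle markers. Pgr came nearest, with r = 0.73 (permutation p = 0.0174, adjusted p = 0.118), rho = 0.64 (p = 0.0276, adjusted p = 0.173), and r = 0.60 in controls and 0.87 in AZ6983 mice. Its r without A5 and C2 was 0.36 (permutation p = 0.323), so this relation rests on those mice too. Among all genes tested 12.6% had r of at least 0.6 with the smooth muscle score and r above 0 in both groups, as did 1 of 26 members. Thra had rho = 0.64 with the smooth muscle score (permutation p = 0.0300, adjusted p = 0.173) and r = 0.45 (permutation p = 0.147, adjusted p = 0.412), and passed by neither. Its r was 0.77 within controls but 0.15 within AZ6983 mice, and 0.68 without A5 and C2 (permutation p = 0.0281).

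With fibroblast markers in place of smooth muscle markers, Rarg was the 1 member linked. The share of all genes was not computed for this score either. Rarg had r = 0.81 with the fibroblast score (permutation p = 0.00103, adjusted p = 0.0155) and rho = 0.75 (p = 0.00669, adjusted p = 0.116). Its r was 0.79 within controls and 0.88 within AZ6983 mice. Without A1 and A2, the mice with the highest fibroblast scores, r was 0.56 and p was no longer under 0.05 (permutation p = 0.0924). Rxrb and Esrra ran the other way. Rxrb had r = -0.76 (permutation p = 0.00402, adjusted p = 0.0348), rho = -0.77 (p = 0.0051, adjusted p = 0.116) and r = -0.71 without A1 and A2. Esrra had r = -0.68 (permutation p = 0.0153, adjusted p = 0.0995) and rho = -0.66 (p = 0.0221, adjusted p = 0.144). Without A1 and A2 its r was -0.51 and p was no longer under 0.05 (permutation p = 0.128). All members tested other than Ppara, Pparg, Rxrg, Esrra, Rxrb, Thrb and Rarg were linked to none of these 4 scores.

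**Figure D3:**
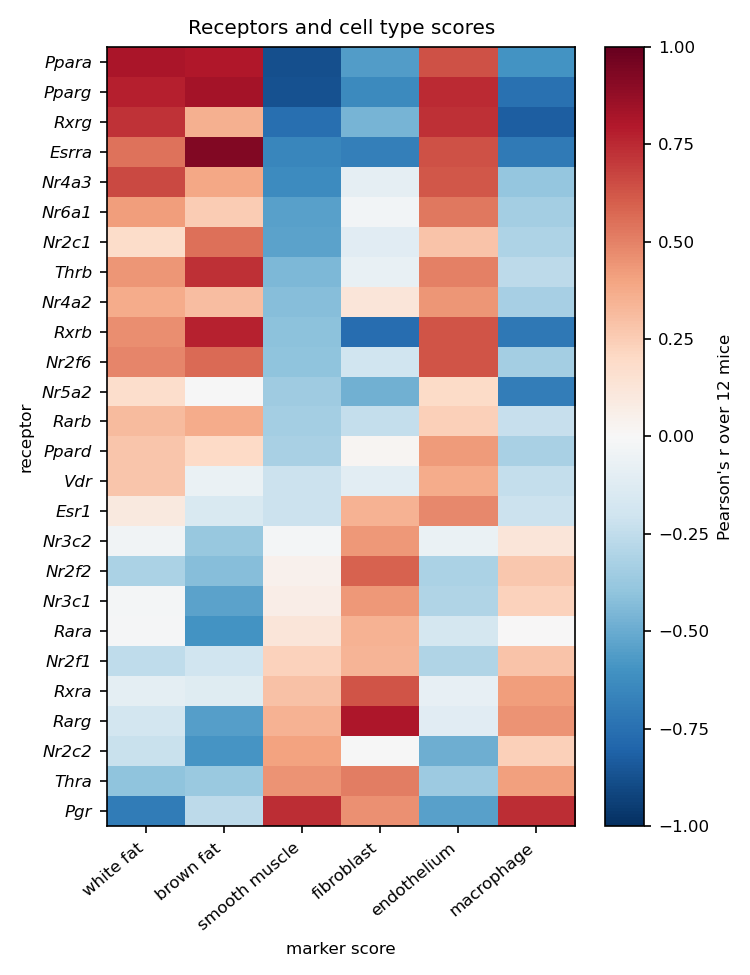
Pearson's r over 12 mice between the log2 CPM of each of the 26 receptors tested (rows, ordered by their r with the smooth muscle score) and 6 marker scores (columns), from -1 (blue) to 1 (red). Ppara, Pparg, Rxrg and Esrra at the top are positive with fat and negative with smooth muscle and macrophage scores, and Pgr and Thra at the bottom show the opposite signs.

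The comparison of AZ6983 with control mice asked whether 8 weeks of α7 agonist came with a different amount of receptor transcript. In edgeR's quasi-likelihood test 0 of the 26 members passed 10% FDR, and the background was 0% (0 of 15857 genes). At an unadjusted p under 0.05 stood 4 members, Esr1, Vdr, Rara and Rxrg, all higher in AZ6983 mice, against 10.2% of all genes tested (7.38% higher and 2.81% lower). The median log2 fold change was 0.08 over the 26 members and 0.01 over all genes, and 19 members were above 0, where 52.4% of all genes were. Groups overlapped in every one of the 26 members, while 0.41% of all genes had groups that did not overlap. In 12 of the 26 members the log2 fold change was smaller than 0.1 in size.

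**Figure D4:**
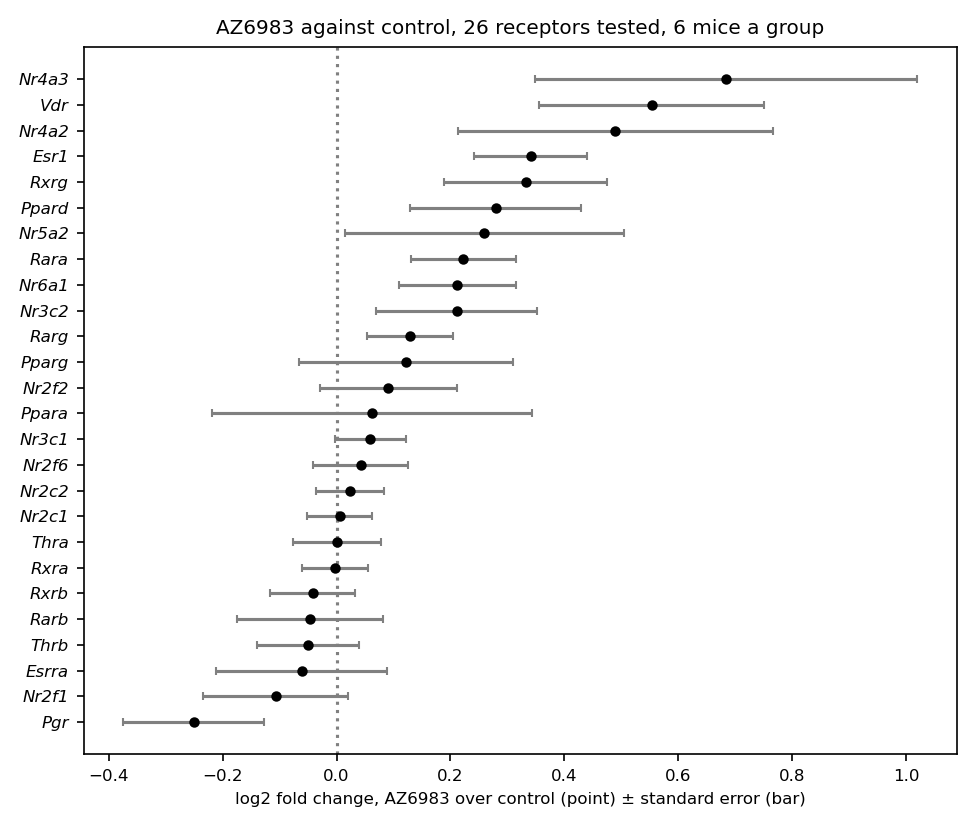
Log2 fold change of AZ6983 over control (point) with its standard error (bar) for the 26 receptors tested, 6 mice a group, from edgeR's quasi-likelihood fit. Most points lie within 0.3 of 0, Nr4a3, Ppara and Nr4a2 have the widest bars, and no receptor passed 10% FDR.

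The member with the smallest p was Esr1 (chr10:4611593-5005614, plus strand). It was at 45.9 to 63.3 CPM in controls (median 54.4) and 54.8 to 83.2 CPM under AZ6983 (median 69.6). In 5 of the 6 AZ6983 mice Esr1 was above every control, A4 being the exception. The log2 fold change was 0.34 (standard error, SE, 0.0992, unadjusted p = 0.0045, edgeR adjusted p = 0.447). It stayed between 0.28 and 0.40 with any 1 mouse left out. Across the 12 mice Esr1 also moved with the share of reads assigned to no gene (r = 0.74, permutation p = 0.00651, rho = 0.73, p = 0.00873, adjusted p of r = 0.167 over 26 members), with r = 0.54 within controls, 0.42 within AZ6983 mice and 0.69 without A2 and C1, the mice farthest from the median. This share was 8.02% to 12.7% in controls and 11.2% to 14.9% in AZ6983 mice. Its effect and that of the treatment therefore cannot be told apart by a fit that holds both. With the share as a covariate the log2 fold change of Esr1 was 0.18. At an unadjusted p under 0.05 then stood 0 members and 467 of all 15857 genes tested, against 4 members and 1616 genes without the covariate. A score of 8 tested markers of 10 for neutrophils was higher in AZ6983 mice (2.99 ± 0.864, 1.68 to 4.18) than in controls (1.37 ± 0.631, 0.577 to 2.24, SD, n = 6 each, exact permutation p = 0.00649), and Esr1 had r = 0.74 with it (permutation p = 0.00624, adjusted p = 0.141 over 338 relations, rho = 0.69, p = 0.0169), with 0.62 without A3 and A6, 0.82 within controls and 0.22 within AZ6983 mice. Of the neutrophil markers, Ltf, Ngp, Camp and Csf3r are on the list the study chose on these mice, so the direction of that score is not independent evidence. It was 1 of 13 scores compared between the groups, and its p was not adjusted for them. The part of neutrophil RNA in the difference was not tested.

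Vdr, whose ligand is active vitamin D, was at 0.791 to 1.34 CPM in controls (median 0.867) and 1.0025 to 1.81 CPM under AZ6983 (median 1.46). In 3 of 6 AZ6983 mice it was above every control and in 4 of 6 controls below every AZ6983 mouse, at 20 to 36 counts in a control and 27 to 68 in a mouse on AZ6983. The log2 fold change was 0.55 (SE 0.198, unadjusted p = 0.0153, edgeR adjusted p = 0.450). Rara, the broadly expressed retinoic acid receptor, was at 11.4 to 14.8 CPM in controls (median 12.8) and 12.03 to 17.1 CPM under AZ6983 (median 15.1). In 4 of 6 AZ6983 mice Rara was above every control, and its log2 fold change was 0.22 (SE 0.0916, adjusted p = 0.466). Rxrg was at 7.48 to 10.6 CPM in controls (median 9.56) and 8.99 to 15.7 CPM under AZ6983 (median 11.4). A4, A5 and A6 were above every control, and the log2 fold change was 0.33 (SE 0.143, adjusted p = 0.475). It was 0.20 without A5, the mouse with the most Rxrg, and 0.27 with the white fat score as a covariate. Without A4, the mouse with the most Rag1 and the highest Vdr and Rara, the log2 fold change was 0.47 for Vdr, 0.18 for Rara and 0.31 for Rxrg, with unadjusted p = 0.0429, 0.0639 and 0.0747. Esr1 and Vdr kept an unadjusted p under 0.05 without any 1 of the 12 mice, and Rara and Rxrg did not.

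**Figure D5:**
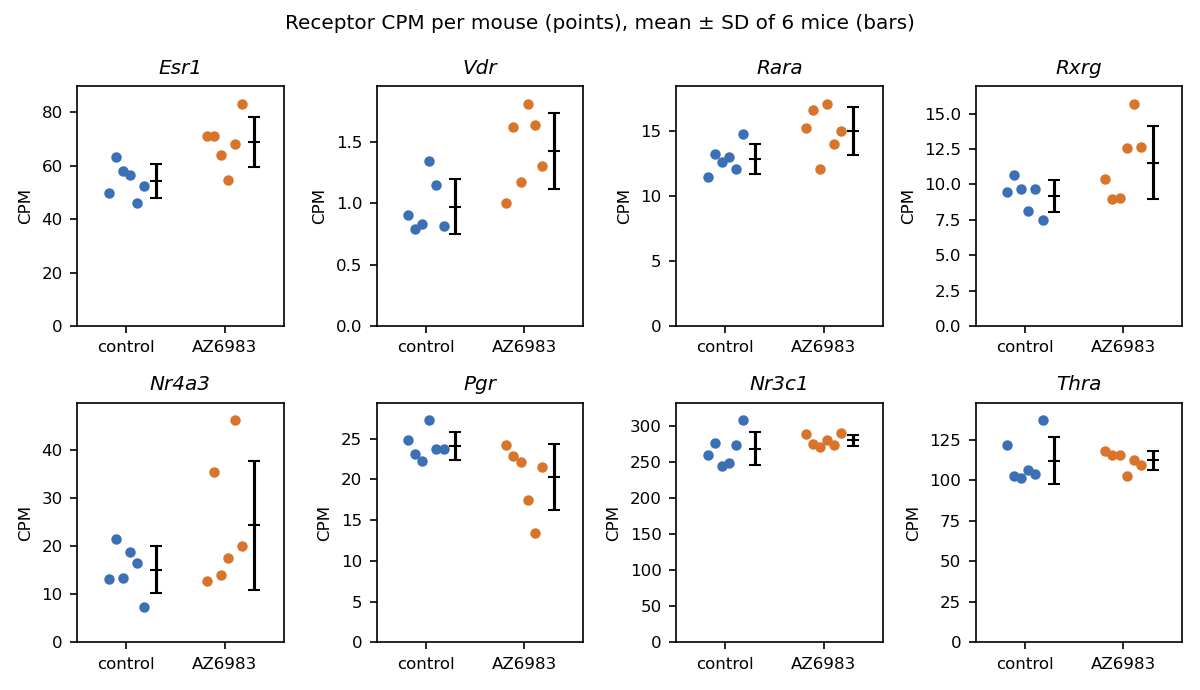
CPM of 8 receptors in each of 6 control and 6 AZ6983 mice (points, axes from 0), with the mean ± SD beside them. The AZ6983 points of Esr1 lie mostly above the controls, those of Vdr, Rara and Rxrg overlap them in part, Nr4a3 is set apart by A2 and A5, and the group means of Nr3c1 and Thra differ by less than the SD of the controls.

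The immediate early receptors, with Ppara, had the widest errors. Nr4a3 was at 7.45 to 21.5 CPM in controls (median 14.9) and 12.7 to 46.2 CPM under AZ6983 (median 18.8), with A2 and A5 above every control. Its log2 fold change was 0.68 (SE 0.336), and 0.38 without A5. Nr4a2 was at 7.34 to 11.3 CPM in controls and 6.98 to 24.6 CPM under AZ6983, and its log2 fold change of 0.49 was 0.17 without A5. Pgr had the largest difference in the other direction. It was at 22.2 to 27.3 CPM in controls (median 23.7) and 13.5 to 24.2 CPM under AZ6983 (median 21.8), lowest in A5 and A4. The log2 fold change of Pgr was -0.25 (SE 0.123, unadjusted p = 0.0633).

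Receptors with high and steady levels differed little. Nr3c1 was at 245 to 308 CPM in controls and 271 to 290 CPM under AZ6983, a log2 fold change of 0.06 (0.022 without C3, 0.038 without C4 and 0.10 without C6), and Thra at 102 to 137 and 103 to 118 CPM. The common partner Rxra was at 71.9 to 86.2 CPM in controls and 71.8 to 83.9 CPM under AZ6983, a log2 fold change of -0.0022. Nr2c1 was at 13.6 to 14.9 CPM in controls and 13.4 to 15.4 CPM under AZ6983.

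The fat-linked receptors Pparg and Ppara had differences whose sign turned when a single mouse was left out. Pparg was at 104 to 137 CPM in controls (median 128) and 99.2 to 238 CPM under AZ6983 (median 119), with A5 highest and the next mouse, A6, at 138 CPM. Its log2 fold change was 0.12 (SE 0.188), and -0.13 without A5. Ppara was at 52.2 to 130 CPM in controls (median 86.1) and 58.7 to 189 CPM under AZ6983 (median 77.6), with a log2 fold change of 0.06 (SE 0.280), -0.29 without A5 and -0.06 without C6, the control with the least Ppara. Esrra was at 41.5 to 54.8 CPM in controls and 37.6 to 72.6 CPM under AZ6983, where 3 mice lay below every control and A5 above. Its log2 fold change was -0.06, and -0.25 without A5. The brown fat score, which Esrra followed, was 6.94 ± 0.289 in controls and 6.65 ± 0.491 in AZ6983 mice (SD, n = 6 each, exact permutation p = 0.223).

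For the remaining members tested, log2 fold changes were 0.28 for Ppard, 0.26 for Nr5a2, 0.21 for Nr6a1 and Nr3c2, 0.13 for Rarg, 0.09 for Nr2f2, 0.04 for Nr2f6 and 0.02 for Nr2c2. Single mice moved several of these by over 1.5 times: Ppard was at 0.16 without A5, Nr5a2 at 0.14 without A4, 0.17 without A5 and 0.45 without C3, Nr3c2 at 0.36 without C6, and Rarg at 0.060 without A2 and 0.084 without C5. Nr2f2 ran from 0.034 without A1 to 0.17 without C6, with 0.036 without C1, 0.038 without C4 and 0.14 without A4. Below 0 stood Nr2f1 at -0.11 (-0.065 without C3, -0.061 without A6 and -0.18 without A1), and Thrb, Rarb and Rxrb between -0.05 and -0.04. edgeR's adjusted p was over 0.447 for each of these members. The range of Nr3c2 was 22.1 to 40.6 CPM in controls and 26.8 to 36.9 CPM under AZ6983. In 5 of 6 controls this receptor was below every AZ6983 mouse, and the control C6 was above all of them.

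Around the receptors, 15 lists of 147 genes for coregulators, ligand handling and known targets were examined, of which 122 genes were tested. In edgeR's test 0 passed 10% FDR, and 12.3% had an unadjusted p under 0.05, 12 higher and 3 lower in AZ6983 mice, near the 10.2% of all genes tested (7.38% higher and 2.81% lower). Coactivators, which join ligand-bound receptors to the transcription machinery, had 5 of 13 members at an unadjusted p under 0.05, all higher, and a median log2 fold change of 0.21 against 0.01 for all genes. Of these the acetyltransferase Ep300 was at 54.7 ± 9.29 CPM in controls and 70.6 ± 13.6 CPM under AZ6983 (SD, n = 6 each), with the log2 fold change at 0.37 (SE 0.139). Corepressors, which silence receptors without ligand, had 4 of 9 at that p, also all higher, with a median of 0.12. Lcor was at 25.0 ± 1.55 CPM in controls and 29.1 ± 2.62 CPM under AZ6983 (SD, n = 6 each), with the log2 fold change at 0.22 (SE 0.0689, edgeR adjusted p = 0.447). With the share of reads assigned to no gene as a covariate, 467 of 15857 genes had an unadjusted p under 0.05, against 1616 without it. That share was mostly higher in AZ6983 mice, so the fit with it cannot tell it from the treatment. Coactivators and corepressors were not counted at that p in that fit.

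In the lists for ligand handling, Cyp26b1, which degrades retinoic acid and is itself a target of retinoic acid receptors, was at 10.4 ± 1.94 CPM in controls and 14.6 ± 1.91 CPM under AZ6983 (SD, n = 6 each), with the log2 fold change at 0.49 (SE 0.130, edgeR adjusted p = 0.447). The gene is on the list the study chose on these mice, so its direction is not independent evidence. It was the only retinoic acid target of 5 tested with an unadjusted p under 0.05, against 10.2% of all genes tested. The median of those targets was -0.07. For thyroid hormone the transporter Slc16a10 had a log2 fold change of 0.24 (SE 0.113), for steroids the dehydrogenase Hsd17b4 had -0.17 (SE 0.124) and for vitamin D the hydroxylase Cyp2r1 had -0.04 (SE 0.126). Of the chaperones that hold steroid receptors ready for hormone, 0 of 9 had an unadjusted p under 0.05, against 10.2% of all genes tested. With 9 genes, a count of 0 says little beside that share. Fkbp5, a chaperone that is also induced by glucocorticoids, was at 88.1 ± 46.1 CPM in controls and 55.2 ± 6.15 CPM under AZ6983 (SD, n = 6 each), with a log2 fold change of -0.67 (SE 0.312).

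Lists of receptor targets had medians on both sides of 0. Of all genes tested, 10.2% had an unadjusted p under 0.05 and 52.4% had a log2 fold change above 0. Counts in lists this short say little beside those shares. Of 12 glucocorticoid targets, 1 was higher (Ddit4, 16.4 ± 4.81 CPM in controls and 25.2 ± 3.48 CPM under AZ6983, SD, n = 6 each) and 1 was lower at an unadjusted p under 0.05, and their median log2 fold change was -0.12. Of 16 targets of PPARα and PPARδ, which run fatty acid oxidation, 4 had a log2 fold change above 0 and the median was -0.08. Acaa1b, a peroxisomal thiolase on this list, was at 19.1 ± 3.92 CPM in controls and 31.4 ± 8.85 CPM under AZ6983 (SD, n = 6 each), with the log2 fold change at 0.72 (SE 0.190, edgeR adjusted p = 0.447). Its groups did not overlap, as was so for 0.41% of all genes, and it too is on the list the study chose on these mice. Of 12 PPARγ targets 8 were above 0, with a median of 0.04 and Adipoq at 0.32 (SE 0.165). Of 14 targets of the estrogen-related receptors 3 were above 0, with a median of -0.09. The smallest p there was that of Esrrb, itself an estrogen-related receptor that the list holds among the targets, which had under 1 CPM in both groups on average and a log2 fold change of -0.65 (SE 0.285). The brown fat gene Ucp1 among the thyroid targets had -0.49 (SE 0.251), Myc among the estrogen and progesterone targets 0.27 (SE 0.198), and the glucose transporter Slc2a4 among the NR4A targets 0.27 (SE 0.148).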

How the data were processed

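RNA of the thoracic aorta from 6 AZ6983 and 6 control mice was sequenced after removal of ribosomal RNA. The authors deposited raw counts per gene symbol (25284 genes), not normalized. The submitters' processing notes name CASAVA 1.8.2, STAR 2.5.2b, HTSeq 0.6.1p1 and the mm10 build, without their roles. The 3 rows that name no gene (reads on no gene, 8.02% to 14.9% of the table per mouse, with ambiguous and multiply aligned reads) entered neither library sizes nor tests. Groups came from the labels, which give no pairing or batch. The column of A1 holds 3 of the 4 digits of its mouse number, and values without A1 are among those below.

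Counts were scaled by TMM and tested with edgeR 4.0.16 in R 4.3.3 (filterByExpr, quasi-likelihood test, no covariate, all genes together, Benjamini-Hochberg adjustment, 10% FDR). DESeq2 1.42.0, limma-voom (limma 3.58.1), other scalings and filters, 2 covariates and each mouse left out were alternatives. Log2 CPM used a prior count of 2. Levels are CPM per kilobase of exon, with lengths and coordinates from GENCODE M21 (GRCm38) by symbol. Scores are the mean log2 CPM of a marker list, and correlations used 100000 permutations (Python 3.11.15) with tests two-sided, while comparisons of groups enumerated all assignments. The members, lists and tests were chosen with earlier results of these data known, and support nothing as independent evidence. The rule for genes named was every member, and of each pathway list the genes past 10% FDR or, with none, the one with the smallest p and any with separate groups. The correlations with all 13 scores and with reads outside genes, and the pathway counts under alternatives, were chosen after seeing the data. The fit and the correlations were tested on simulated data first. Near-identical copies could lose multiply aligned reads. Depth was 23810036 to 35864666 counts on genes per mouse, and values of members with few counts are imprecise.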

Additional observations from a re-analysis of the deposited data

Results flagged for a closer look

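Of 78 groups of 6 mice examined (26 members and 13 marker scores), 7 had a mouse far from the other 5, where chance gives about 1 in 20, or 3.9. Nr3c2 in controls was at a log2 CPM of 5.34 in C6, the other 5 controls lying between 4.47 and 4.73. Ppara in AZ6983 mice was at 7.57 in A5, the other 5 between 5.88 and 6.48. In C6 the brown fat score (mean log2 CPM) was 6.37, the other 5 controls between 6.96 and 7.14, and the endothelium score was 5.61, the others between 5.78 and 5.86. Among AZ6983 mice the thymus and T cell score was 6.02 in A4, the other 5 between -0.48 and 1.66. The mesothelium score was -0.98 in A3, the others between 1.21 and 2.05, and the cartilage score was 2.80 in A2, the others between 1.77 and 1.97. Each value is the highest or lowest of its group by a gap larger than the spread of the others allows at the 95% level, and no cause was tested.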

How the results depend on the processing

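The count of members at 10% FDR was 0 in every fit run, and the count at or above 1 CPM per kilobase stayed between 21 and 24. The count over all genes, 0 in edgeR, was 92 in DESeq2 and 3 with the white fat score as a covariate, and ran from 0 to 27 with 1 mouse left out (27 without A5, 1 without C6 or A1). Of the pathway genes DESeq2 called 2 (Acaa1b and Cyp26b1, adjusted p = 0.0811 and 0.0801), and 0 to 1 were called with a mouse left out (Ucp1 without A5). The count of members with an unadjusted p under 0.05, 4 in edgeR, was 6 in DESeq2 and 0 with the no-gene read share as a covariate, and ran from 2 (without C1, C3 or C5) to 7 (without A1). Over all genes this count moved too, from 1616 of 15857 in edgeR to 1966 in DESeq2 and 467 of 15857 with that covariate. It was 1046 of 16043 without C1, 1088 of 15997 without C3, 1292 of 16018 without C5 and 2233 of 15998 without A1. The no-gene read share was mostly higher in AZ6983 mice, so a fit with it as a covariate cannot tell it from the treatment. The 3 fat-linked members became 0 by Spearman's rho and 5 with brown fat markers, and 0 (without C6 or A5) to 5 (without C2) with a mouse left out. The 0 wall-linked members became 1 with fibroblast markers, 1 with group means removed, 1 by the difference of the scores, and 0 to 1 with a mouse left out (1 without C2, C5 or A4). The cause of these changes was not tested.

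Of 232 log2 fold changes of members under alternatives that kept all mice, 216 kept their direction, and of 312 with a mouse left out 286 did. The no-gene read share as a covariate turned Esrra to 0.070, Nr2f2 to -0.046, Ppara to -0.047, Rarb to 0.14 and Rxrb to 0.048, and the white fat covariate turned Ppara to -0.12 and Pparg to -0.0039. Values close to 0 turned with the method: Nr2c1 was -0.0017 by upper quartile, -0.013 without a filter and -0.0070 in DESeq2, Rxra was 0.0058 at a mean of 50 counts and 2.1e-05 in limma-voom, and Thra was -0.00115 with DESeq2 size factors, -0.0063 by upper quartile, -0.017 without a filter and -0.0083 in DESeq2. With a mouse left out the ranges that crossed 0 were -0.039 to 0.021 (Nr2c1), -0.028 to 0.041 (Nr2c2), -0.044 to 0.087 (Nr2f6), -0.29 to 0.18 (Ppara), -0.13 to 0.20 (Pparg), -0.15 to 0.019 (Rarb), -0.044 to 0.024 (Rxra), -0.040 to 0.065 (Thra) and -0.14 to 0.0021 (Thrb). Depth limited Vdr and Nr5a2 most among the members tested, and Nr1h4, Esr2, Nr1i3, Hnf4a and Nr0b1 did not pass the filter. The groups have no replicate numbers in common in the labels, and no paired analysis was possible because the labels pair no mice.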

Other observations

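Over the 338 relations of 26 members with 13 marker scores, 9 had an adjusted permutation p under 0.10. Of the relations given for white fat, brown fat, smooth muscle and fibroblast markers, 7 were among them: Ppara with white fat, Esrra, Ppara and Pparg with brown fat, Ppara and Pparg with smooth muscle, and Rarg with fibroblast markers. Over this larger family Pparg and Rxrg with white fat (adjusted permutation p = 0.134 and 0.156), Rxrb and Thrb with brown fat (0.124 and 0.141), Rxrg with smooth muscle (0.134), and Rxrb and Esrra with fibroblast markers (0.124 and 0.217) did not pass. The other 2 were Rxrg with the macrophage score (r = -0.83, permutation p = 0.00099, adjusted p = 0.0623, rho = -0.76, p = 0.00603) and Nr5a2 with the nerve score (r = 0.81, permutation p = 0.00201, adjusted p = 0.0837, rho = 0.84, p = 0.00117). The relation of Rxrg with macrophage markers was negative within both groups (r = -0.56 in controls, -0.98 in AZ6983 mice, -0.72 without A2 and A5). Nr5a2 rested on 12 to 35 counts per mouse, with r = 0.77 in controls, 0.86 in AZ6983 mice and 0.78 without C1 and C4.

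Nr4a2 and Nr4a3 had coefficients of variation of 45.6% and 54.7%, and Nr4a3 had r = 0.66 with the white fat score (permutation p = 0.0198, adjusted p = 0.118 over 52 relations, rho = 0.57, p = 0.0555). Without A5 and C2 its r was 0.35 (permutation p = 0.321), so the relation rests on those mice.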
